A study of Rattus norvegicus with 6 samples.

Results

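The miR-10, miR-99, miR-100 and miR-125 family was measured by small RNA sequencing in 6 testis samples of Sprague-Dawley rats. Its members were taken by name alone, as every known rat miRNA called miR-10a, miR-10b, miR-99a, miR-99b, miR-100, miR-125a or miR-125b with any arm or copy number, which gave 15 of the 721 rows of the deposited table. The 3 diabetic samples were taken at 8 weeks of diabetes induced with streptozotocin (STZ), a toxin of the insulin-producing cells. It was injected after a high-fat diet, and the rats behind the 3 normal samples were injected with citrate buffer instead. The labels give no age, the testis is whole tissue, and the controls' diet is not stated. Fewer cells of a type and less of a miRNA per cell cannot be told apart in such samples, and p-values measure only the spread between these samples, which may be technical, since the labels do not say that each came from a separate animal.

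MicroRNAs are cut from a hairpin precursor that has a 5p and a 3p arm, and one arm is usually kept. They find messenger RNAs mainly through the seed, bases 2 to 8 from the 5′ end. The miR-125 group is the vertebrate counterpart of the nematode lin-4, and LIN28 is a known target of it. miR-99a, miR-99b and miR-100 are known to repress MTOR and IGF1R, both part of the insulin and growth factor response, while the miR-10 genes lie inside the Hox gene clusters.

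The mature sequences are shown because the seed, and not the name, sorts the members. RefSeq (rat assembly GRCr8) held 14 of the 15, and rno-miR-99a-5p was not among them. The 6 sequences of the 5p arm follow, from 5′ to 3′, with the seed in capitals.
miR-100-5p: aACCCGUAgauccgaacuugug
miR-99b-5p: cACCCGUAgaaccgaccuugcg
miR-10a-5p: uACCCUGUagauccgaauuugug
miR-10b-5p: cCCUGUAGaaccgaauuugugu
miR-125a-5p: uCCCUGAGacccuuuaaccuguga
miR-125b-5p: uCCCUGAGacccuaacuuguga
miR-100-5p and miR-99b-5p shared 1 seed, and miR-125a-5p and miR-125b-5p shared another. The 2 miR-125 sequences were identical over their first 13 bases. miR-10a-5p and miR-10b-5p, although named as a pair, did not share a seed as listed. Laid over each other, they were identical at 20 of 21 bases with the single substitution U12A, counted from the 5′ end of miR-10a-5p. The listed miR-10b-5p starts 2 bases later than miR-10a-5p, so its seed window is moved by 2 bases. Of the other miRNAs in the table with a RefSeq sequence, 1 had a seed of the family, miR-351-5p with the miR-125 seed (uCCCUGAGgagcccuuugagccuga).

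Most members are made from 3 transcripts that each hold a miR-99 or miR-100 gene, a let-7 gene and a miR-125 gene. In the order of RefSeq genes, Mir99b, Mirlet7e and Mir125a stood together between Spaca6 and Has1. Mir100, Mirlet7a-2 and Mir125b1 stood between Mir100hgl and Sorl1, and Mir99a, Mirlet7c1 and Mir125b2 between Usp25 and Cxadr. Mir10a lay between Hoxb5 and Hoxb4, and Mir10b between Hoxd4 and Hoxd3. The mature miR-125b-5p carries no copy number, since its sequence is listed for Mir125b2 and also lies in the Mir125b1 hairpin, so its reads cannot be assigned to 1 of these genes.

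Levels are given as CPM, in which each library's reads are divided by its total over all listed miRNAs and brought to one common total. The 6 libraries held from 305476 to 549446 such reads, so 1 read was worth from 1.82 to 3.27 CPM and a level of 3 reads, the least treated as measurable, from 5.46 to 9.82 CPM. Among the marker miRNAs of other testis cells, those of germ cells (6 of 6 in the table) summed to 306980 to 355980 CPM over all libraries, with none at 0 throughout. As a sum, these germ cell markers were therefore high in each group, and 5 of the 6 reached 1 CPM in 3 or more libraries. Summed endothelial markers (2 of 2) stood at 11722 to 13783 CPM in diabetic against 8662 to 11086 CPM in normal libraries. Those of Sertoli and other gonadal somatic cells (2 of 2) stood at 4102 to 4467 CPM against 3262 to 3693 CPM. Neither pair of ranges overlapped, whereas the germ cell, contractile cell, leukocyte, red cell, fibroblast and epithelial sums overlapped. The endothelial and the gonadal somatic sum each hold only the 2 arms of 1 hairpin, miR-126a and miR-202. Of all 578 tested miRNAs, 14.9% likewise did not overlap between the groups. The part of any of these cells in the values below was not tested.

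The family was an abundant part of the testis miRNAs in every library. It took 6.32%, 5.46% and 6.67% of reads in diabetic replicates 1, 2 and 3, and 7.16%, 7.34% and 5.81% in normal replicates 1, 2 and 3. The lowest and the second lowest share came from one library of each group, and the groups overlapped. The mean share was 6.15% ± 0.622 for the diabetic and 6.77% ± 0.831 for the normal group (SD, n = 3 each, two-sided exact permutation p = 0.4). By name, the miR-99 and miR-100 5p rows took 4.45% ± 0.621 against 4.97% ± 0.767 (exact permutation p = 0.5). The miR-125 5p rows took 1.599% ± 0.107 against 1.71% ± 0.149 (exact permutation p = 0.5), and the miR-10 5p rows 0.0749% ± 0.0199 against 0.0691% ± 0.0383 (exact permutation p = 0.8). The 3p rows together took 0.0191% ± 0.00387 against 0.0184% ± 0.00294 (exact permutation p = 0.8). For these 5 shares the differences did not exceed the larger group SD, and each adjusted p was 0.8 (Benjamini-Hochberg over 5 exact permutation tests). With 3 libraries against 3 the smallest p such a test can give is 0.1.

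**Figure D1:**
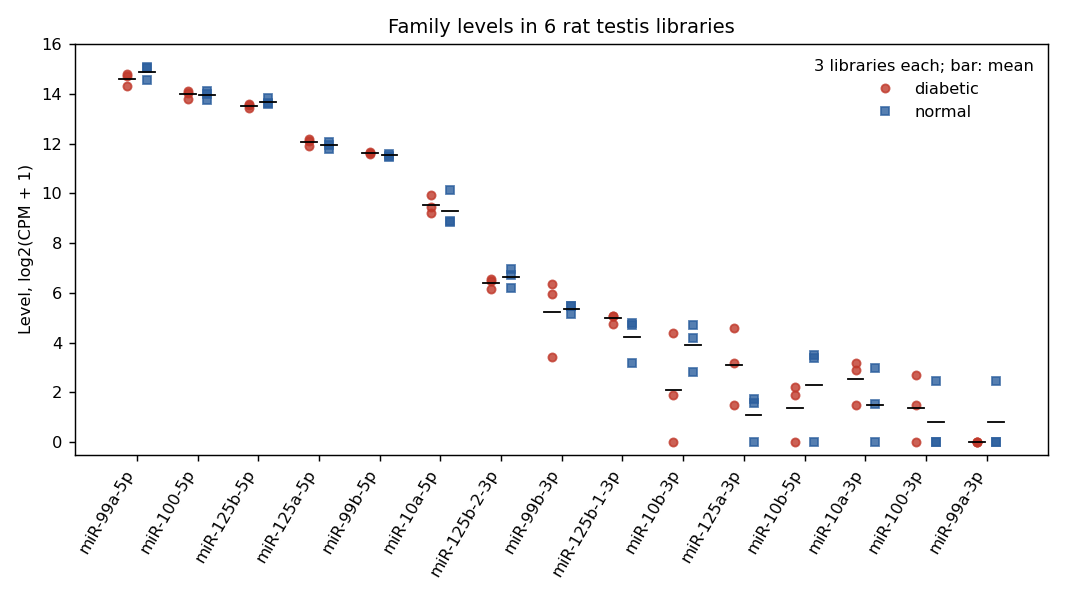
Level of each of the 15 family members as log2(CPM + 1) on the vertical axis, with red circles for the 3 diabetic and blue squares for the 3 normal libraries and a black bar at each group mean. Levels fall from 27974 CPM for miR-99a-5p to 0.75 CPM for miR-99a-3p, the other arm of the same hairpin.

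The members spanned from the 7th most abundant of the 721 rows to near absence. In order of the mean over the 6 libraries, miR-99a-5p was at 27974 CPM, miR-100-5p at 16096, miR-125b-5p at 12455, miR-125a-5p at 4100, miR-99b-5p at 3041 and miR-10a-5p at 716. The first 5 held 98.6% of the family's reads. Ranges of neighbours in this order were separate, except that miR-100-5p and miR-125b-5p overlapped, although miR-100-5p was higher in 6 of 6 libraries. The next was miR-125b-2-3p at 92.3 CPM, and the other 8 members averaged from 45.3 CPM down to 0.75 CPM. Each of these overlapped its neighbour. Reads numbered 10 or more in each library for 7 members, and 5 of the tested members averaged under 10 reads a library.

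The main question of the design was which miRNAs differed between diabetic and normal testes. The test was limma on log2(CPM + 1), fitted on the 578 miRNAs that reached 1 CPM in 3 or more libraries, of which 14 were family members. miR-99a-3p did not enter it. None of the 14 passed, with 0 at an adjusted p under 0.05, and the smallest adjusted p among them was 0.551. The background for this call was 0% of all tested miRNAs. At an unadjusted p under 0.05 there were again 0 of 14, beside 51 of 578 (8.82%) over all miRNAs. On reads recovered from the CPM, edgeR gave 3 of 14 members at an unadjusted p under 0.05, beside 55 of 578 miRNAs (9.52%), and DESeq2 gave 2 of 14, beside 39 of 578 (6.75%). These were miR-99a-5p and miR-125b-5p with both tools, and miR-125a-3p with edgeR. Neither tool gave a member at an adjusted p under 0.05. The fitted difference was above 0 for 8 members and below 0 for 6 (57.1% above), with a median of 0.06, beside 50.5% above 0 and a median of 0.0046 over all tested. The 2 groups did not overlap for 2 members, miR-125b-5p and miR-99b-5p, which is 14.3% of them and near the 14.9% of all tested.

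**Figure D2:**
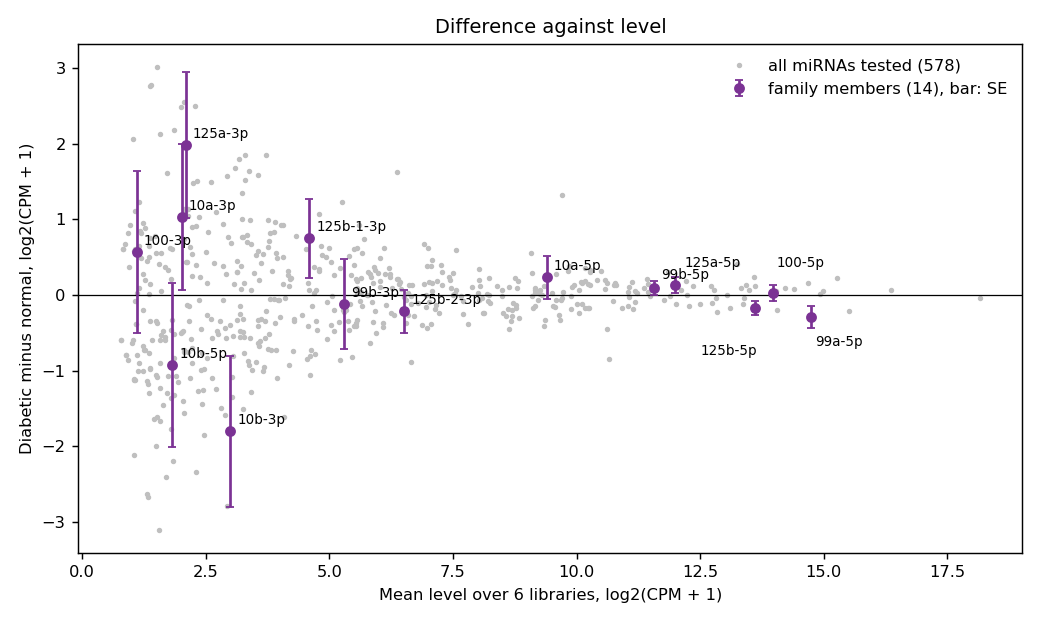
Difference between groups (diabetic minus normal, log2(CPM + 1)) against the mean level over 6 libraries on the same scale, for all 578 tested miRNAs in grey and the 14 tested family members in purple with their standard errors. The 6 most abundant members lie between -0.29 and 0.23, while scarce ones reach 1.98 (standard error 0.97) and -1.80 (standard error 0.996).

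miR-99a-5p, the most abundant member, was at 26706, 20126 and 28580 CPM in diabetic replicates 1, 2 and 3 and at 33567, 34806 and 24058 CPM in normal replicates 1, 2 and 3. The 2 highest values were normal and the lowest was diabetic, but normal replicate 3 lay inside the diabetic range. The difference was -0.29 on the log2(CPM + 1) scale (standard error 0.14, adjusted p by limma = 0.551). With 1 library left out it ran from -0.14, without diabetic replicate 2, to -0.46, without normal replicate 3, and it was -0.19 without normal replicate 2. The unadjusted p was under 0.05 in 2 of these 6 fits, without normal replicate 3 and without diabetic replicate 3, where the limma adjusted p was 0.479 and 0.503. The difference ran from -0.32 to -0.40 under 3 other scalings (DESeq2 size factors, TMM and upper-quartile factors). The unadjusted limma p was under 0.05 in each, with adjusted p from 0.321 to 0.455. Those scalings also moved the median over all tested miRNAs to between -0.03 and -0.10. For miR-99a-5p the unadjusted p was under 0.05 as well with no filter (limma adjusted p = 0.490), by edgeR (adjusted p = 0.347) and by the DESeq2 Wald test (adjusted p = 0.5795).

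miR-100-5p has the seed of miR-99b-5p and is likewise known to act on MTOR. It was at 17654, 14202 and 16926 CPM in diabetic and 17663, 16196 and 13934 CPM in normal libraries. The groups covered almost the same range. The difference was 0.03 (standard error 0.11, adjusted p by limma = 0.889), and it lay below 0 with DESeq2 size factors, upper-quartile factors and TMM factors.

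miR-99b-5p was the least variable of the abundant members. Its levels were 3153, 3070 and 3189 CPM in diabetic and 3062, 2931 and 2845 CPM in normal libraries. Its highest value was 1.12 times its lowest, and 96.9% of the 257 miRNAs that had 10 reads or more in each library varied more widely. The groups did not overlap by a narrow margin, the lowest diabetic value being 3070 and the highest normal value 3062 CPM. The difference was 0.09 (standard error 0.09, adjusted p by limma = 0.795; exact permutation p = 0.1). The groups overlapped under the other 3 scalings. The difference was 0.0589 with DESeq2 size factors and 0.0408 with TMM factors, and with upper-quartile factors, which moved the median of all miRNAs to -0.10, the sign turned to -0.0161.

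miR-125b-5p, the more abundant of the lin-4 counterparts, was at 11009, 11961 and 12141 CPM in diabetic and 12391, 14558 and 12669 CPM in normal libraries. Every normal library was above every diabetic one. The difference was -0.17 (standard error 0.09, adjusted p by limma = 0.634; exact permutation p = 0.1). It was below 0 and the groups stayed apart under each of the other 3 scalings. There it ran from -0.20 to -0.28 with an unadjusted p under 0.05 and limma adjusted p from 0.321 to 0.455. Those scalings also moved the median over all tested miRNAs from 0.0046 to -0.0268 (DESeq2 size factors), -0.0447 (TMM) and -0.1009 (upper-quartile). Without normal replicate 2, the highest library, the miR-125b-5p difference was -0.0996 (limma adjusted p = 0.786).

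rno-miR-125a-5p, which has the same seed, was at 3781, 4403 and 4681 CPM in diabetic and 3549, 4241 and 3944 CPM in normal libraries. The lowest value was normal and the highest 2 were diabetic, with overlap between them. The difference was 0.13 (standard error 0.11, adjusted p by limma = 0.795). It was 0.0626 without normal replicate 1, 0.0647 without diabetic replicate 3 and 0.219 without diabetic replicate 1, and 0.0987, 0.0805 and 0.0236 with DESeq2 size factors, TMM and upper-quartile factors. miR-351-5p, the further miRNA with the miR-125 seed, was at 612, 777 and 732 CPM against 848, 830 and 662 CPM. Its difference was -0.14 (standard error 0.15, adjusted p by limma = 0.795).

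miR-10a-5p varied most among the abundant members. It was at 691, 583 and 966 CPM in diabetic and 1133, 453 and 468 CPM in normal libraries. Normal replicate 1 was the highest of all 6, and the other 2 normal libraries were the lowest. The highest value was 2.503 times the lowest, against a median of 1.503 over those 257 miRNAs. The difference was 0.23 (standard error 0.28, adjusted p by limma = 0.809). It was 0.004 to 0.0303 without normal replicate 2, normal replicate 3 or diabetic replicate 3. Without normal replicate 1 it was 0.665, with no overlap between the groups and a limma adjusted p of 0.470, so that the size of this value rests on single libraries.

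Differences were also compared within a library, as log2 ratios of related members, which do not depend on how libraries are scaled. For 3 ratios every library had reads of both members. miR-125b-5p exceeded miR-125a-5p by 2.91, 2.72 and 2.59 times in diabetic and by 3.49, 3.43 and 3.21 times in normal libraries. All diabetic ratios were below all normal ones. The mean log2 ratio was 1.45 ± 0.0840 against 1.76 ± 0.0636 (SD, n = 3 each), a difference of -0.30 (exact permutation p = 0.1, the smallest possible; adjusted 0.15 over 3 ratios).

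The ratio of miR-100-5p to miR-99a-5p was 0.661, 0.706 and 0.592 in diabetic and 0.526, 0.465 and 0.579 in normal libraries. The groups again did not overlap, with diabetic replicate 3 and normal replicate 3 close to each other. The mean log2 ratio was -0.62 ± 0.128 against -0.94 ± 0.158 (SD, n = 3 each), a difference of 0.32 (exact permutation p = 0.1; adjusted 0.15). The ratio of miR-99b-5p to miR-99a-5p overlapped, at 0.118, 0.153 and 0.112 against 0.0912, 0.0842 and 0.118 (exact permutation p = 0.3; adjusted 0.3). Of all 32896 pairs among those 257 miRNAs, 14.8% had ratios that did not overlap between the groups. The 2 ratios with miR-99a-5p share a denominator and are not separate evidence.

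**Figure D3:**
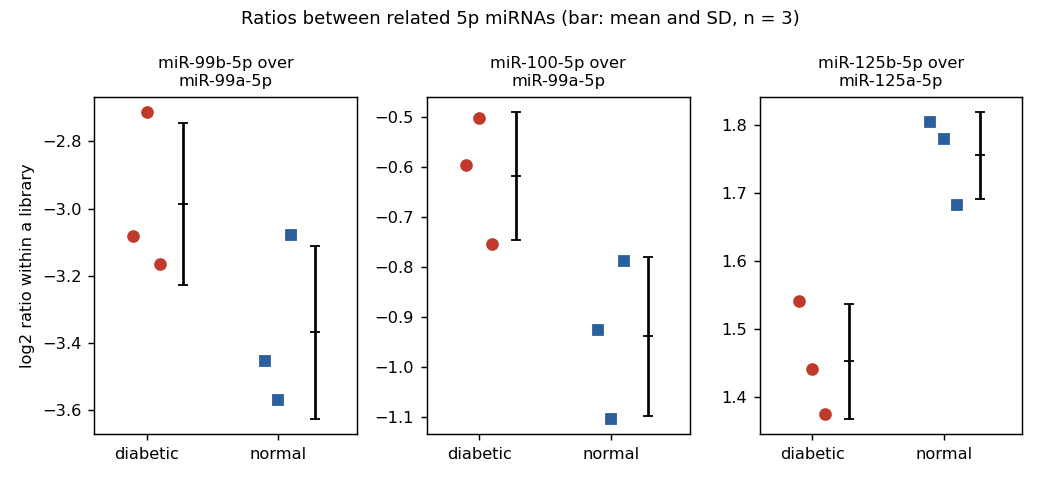
log2 ratio of 2 related 5p miRNAs within each library, 1 panel per ratio with its own vertical scale, red circles for the 3 diabetic and blue squares for the 3 normal libraries, and a bar for the mean and SD. The groups are apart for miR-100-5p over miR-99a-5p and for miR-125b-5p over miR-125a-5p, and overlap for miR-99b-5p over miR-99a-5p.

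The members can also be set out by the transcript that holds their genes. From the Mir99b transcript, miR-99b-5p, let-7e-5p and miR-125a-5p had differences of 0.09, 0.03 and 0.13. miR-99a-5p and let-7c-5p, both with genes in the Mir99a transcript, had -0.29 and -0.13, and miR-125b-5p had -0.17. miR-100-5p and let-7a-5p, with genes in the Mir100 transcript, had 0.03 and 0.0016. None of these values passed the test, and let-7a-5p, let-7c-5p and miR-125b-5p each have more than 1 gene. miRNAs with genes in 1 transcript differed in CPM. In normal libraries let-7e-5p averaged 724 CPM, beside 2946 for miR-99b-5p and 3911 for miR-125a-5p. Whether the mature miRNAs themselves were unequal was not tested, and the treatment of reads matching several miRNAs is not given. Of the 6 let-7 rows tied to these transcripts, all were tested, 0 had an unadjusted p under 0.05, 4 had a difference above 0 and the median was 0.01.

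The 3p arms were scarce for all hairpins but one. Of the reads of both arms over 6 libraries, the 3p arm took 2 of 76060 for miR-99a, 5 of 43140 for miR-100, 13 of 11124 for miR-125a and 10 of 1940 for miR-10a. It took 0.928% for miR-125b (317 reads over its 2 copies) and 1.51% for miR-99b. Exact 95% binomial intervals were 0.829% to 1.04% and 1.26% to 1.80%, and they cover counting error only. The share from the 3p arm was compared between groups for 4 hairpins, miR-10a, miR-99b, miR-125a and miR-125b, and all 4 overlapped, with exact permutation p from 0.3 to 0.8 and adjusted values of 0.6 and 0.8.

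miR-10b was the exception. Its 3p arm had 35 reads and its 5p arm 13, so the 3p arm took 72.9% of 48 reads (exact 95% binomial interval 58.2% to 84.7%). That interval pools the libraries and covers counting error only. The listed miR-10b-5p had 0, 1 and 2 reads in diabetic and 0, 5 and 5 in normal libraries, beside 1930 reads of miR-10a-5p in all. miR-10b-3p had 0, 1 and 11 reads in diabetic and 11, 3 and 9 in normal libraries. The 3p arm had more reads than the 5p arm in 3 of 6 libraries, and diabetic replicate 1 had none of either, so a ratio to miR-10a-5p and a share for every library could not be computed. The RefSeq hairpin of Mir10b (chr3:80035859-80035967 in GRCr8, plus strand) is shown because of where the listed 5p arm begins, with both arms in capitals.
Mir10b: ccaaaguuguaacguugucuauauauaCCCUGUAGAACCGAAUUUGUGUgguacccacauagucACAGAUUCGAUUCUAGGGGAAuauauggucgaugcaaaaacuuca
The listed arm begins at base 28 of the hairpin. The first 11 bases of miR-10a-5p occur in it from base 26, that is 2 bases earlier. How the authors counted reads that start before a listed arm, or that fit miR-10a-5p and miR-10b-5p alike, is not given in the sources used here. The split between these 2 names is therefore uncertain, and its part in the low miR-10b-5p level was not tested.

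Neither arm of miR-10b passed the test between groups. For miR-10b-3p the fitted difference was -1.80 (standard error 0.996, adjusted p by limma = 0.669). It was -2.95 (limma adjusted p = 0.433) without diabetic replicate 3, which held 11 of the 12 diabetic reads, and -0.76 (limma adjusted p = 0.803) without diabetic replicate 1, which held none. It was -0.98 with DESeq2 and -0.84 with edgeR. For miR-10b-5p all diabetic libraries were at or under 3 reads, and 3 reads against 10 gave a ratio of read rates of 0.358 with a counting interval of 0.0633 to 1.39.

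**Figure D4:**
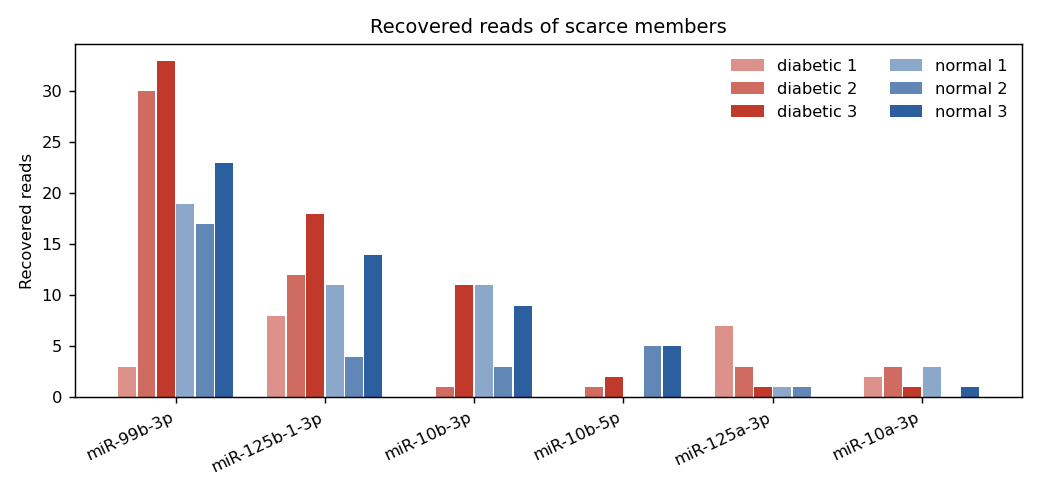
Recovered reads of 6 scarce members in each library, as bars from 0, in shades of red for diabetic replicates 1 to 3 and of blue for normal replicates 1 to 3. miR-125a-3p reaches 7 reads in diabetic replicate 1, and miR-99b-3p stands at 3 reads in that library against 17 to 33 in the others.

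rno-miR-125a-3p had the largest fitted difference of the family. The hairpin it is cut from (chr1:67350675-67350759 in GRCr8, plus strand) is shown with both arms in capitals, the 5p arm first.
Mir125a: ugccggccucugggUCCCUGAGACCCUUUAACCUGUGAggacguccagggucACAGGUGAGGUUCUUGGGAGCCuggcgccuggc
The 3p arm has a seed of its own (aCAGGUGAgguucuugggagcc) that no other member shares. It had 7, 3 and 1 reads in diabetic and 1, 1 and 0 in normal libraries, which is 22.9, 8.1 and 1.8 CPM against 2.3, 2.0 and 0 CPM. Diabetic replicate 1 was far above the rest, diabetic replicate 3 lay inside the normal range, and every normal library was under 3 reads. The fitted difference was 1.98 (standard error 0.97, adjusted p by limma = 0.551; exact permutation p = 0.3), and it was 3.16 with a pseudocount of 0.1. Summed by group, 11 reads against 2 gave a ratio of read rates of 6.56, with a 95% counting interval of 1.43 to 60.9 that leaves out the spread between samples. The difference was 1.23 without diabetic replicate 1. It was 2.78 without diabetic replicate 3, where the unadjusted p fell under 0.05 and the limma adjusted p was 0.433. The 5p arm of this hairpin had from 1155 to 2572 reads per library, and the share of the 3p arm was 0.602%, 0.183% and 0.0389% in diabetic and 0.0638%, 0.0479% and 0% in normal libraries (exact permutation p = 0.3; adjusted 0.6).

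The remaining 3p members had overlapping groups. miR-125b-2-3p was at 88.4, 94.1 and 71.0 CPM in diabetic and 72.5, 103.5 and 124.5 CPM in normal libraries, a difference of -0.22 (standard error 0.28, adjusted p by limma = 0.809) that ran from -0.43 without normal replicate 1 to -0.0457 without normal replicate 3. miR-125b-1-3p was at 26.2, 32.3 and 32.8 CPM against 24.9, 8.1 and 26.4 CPM, where only normal replicate 2 stood clearly lower (difference 0.75, standard error 0.53, limma adjusted p = 0.728). The difference was 0.23 without that library. These 2 rows mark the separate genes of miR-125b and differ in seed, whereas miR-99a-3p and miR-99b-3p share one. miR-99b-3p had 3, 30 and 33 reads in diabetic and 19, 17 and 23 in normal libraries. Its difference was -0.12 (standard error 0.60, adjusted p by limma = 0.929), and it ran from -0.68 without diabetic replicate 2 to 0.78 without diabetic replicate 1. miR-10a-3p had at most 3 reads in any library, miR-100-3p at most 2, and miR-99a-3p 2 reads in normal replicate 1 alone. No fold is therefore given for them here.

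Other miRNAs were ranked by how closely their log2(CPM + 1) followed the 3 most abundant members over the 6 libraries, among 250 with at least 10 reads in each. miR-100-5p was followed most closely by miR-423-5p (Pearson r = 0.989) and miR-151-3p (0.986), miR-125b-5p by miR-148a-3p (0.959) and miR-107-3p (0.944), and miR-99a-5p by the predicted entry 4_15389 (0.927) and miR-509-5p (0.896). These are descriptions over 6 points that share library totals and the diabetic and normal grouping, and the closest of 250 candidates is high by selection.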

How the data were processed

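MicroRNAs of whole testis were sequenced single-end in 3 diabetic and 3 normal samples of rats. The authors deposited 1 table of CPM values (reads scaled to the library total) under headings reading TPM, rounded to 1 decimal, with 539 known and 182 predicted miRNAs. Per the labels, the processing notes name Bowtie 0.12.2, HISAT2 2.0, StringTie 1.3.0 and the mouse build mm8 with no role given. The miRBase release and the treatment of reads matching several miRNAs are not given in the sources used here, and the labels' extraction text describes a poly(A) library.

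Whole reads were recovered from the CPM steps (100% of values within 0.05 CPM), giving 305476 to 549446 reads per library. The groups were compared with limma 3.58.1 (R 4.3.3) on log2(CPM + 1) with a trended prior, two-sided, for miRNAs at 1 CPM or more in at least 3 libraries, with Benjamini-Hochberg adjustment. Shares and ratios were compared with two-sided exact permutation tests (scipy 1.17.1). No fold was given where both groups were at or under 3 reads a library, except to show where a sign turned between settings. Alternatives were another pseudocount, prior, filter, scaling, thinning, a replicate block, edgeR 4.0.16, DESeq2 1.42.0 and leaving out each library. The limma step was tested on simulated data. Intervals cover counting error only. The miRNAs named were the 15 members, up to 4 of 7 listed let-7 miRNAs (1 of them, let-7c-2-3p, comes from a gene outside the 3 transcripts and was left out of their count), non-members with a seed of a 5p member, and for each of the 3 most abundant members the 2 non-members correlating best with it. The members, marker lists and tests were chosen with earlier results of these data known. Sequences and gene order came from RefSeq (GRCr8).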

Additional observations from a re-analysis of the deposited data

How the results depend on the processing

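No family member had an adjusted p under 0.05 in the main test or in any of the 17 alternatives. The number at an unadjusted p under 0.05 was 0, and 1 with no filter, 2 with DESeq2 size factors, upper-quartile factors, TMM factors or the DESeq2 Wald test, 3 with edgeR, and from 0 to 3 with 1 library left out. Over all miRNAs tested the same calls numbered 51 of 578, and 56 of 721 (7.77%) with no filter. Under those 3 scalings they numbered 60, 57 and 60 in turn. They numbered 39 by the DESeq2 Wald test, 55 by edgeR, 44 under the block, and from 40 to 56 with 1 library left out. With the replicate number as a block, 1 member was called, miR-99a-5p (limma adjusted p = 0.478). Same-numbered libraries did not deviate together (correlations 0.00648, -0.0688 and -0.0894 over 257 miRNAs), so the numbers were not taken as pairs, and the block changed no adjusted call of a member. Over all miRNAs the count at an adjusted p under 0.05 was 0, and 8 without the trend, 2 with edgeR, 1 unfiltered, 1 when each library had to hold 10 reads, 1 for upper-quartile and for TMM factors, 1 under the block, 1 by DESeq2, and from 0 to 1 with 1 library left out. The 51 of 578 (8.82%) at an unadjusted p became 25 of 257 (9.73%) when each library had to hold 10 reads. Members whose groups did not overlap numbered 2, and 1 with DESeq2 size factors, upper-quartile or TMM factors, and from 2 to 5 with 1 library left out. Over all 578 miRNAs the groups of 86 did not overlap, of 81 to 89 under those scalings, and of 128 to 149 (22.1% to 25.8%) with 1 library left out, since groups of fewer samples overlap less often.

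The sign of the log2 difference turned for 5 members. miR-10a-3p and miR-100-3p had at most 3 and 2 reads in any library. Their values below are printed only to show the turn and are not read as folds. miR-100-5p was at -0.077 after upper-quartile scaling, at -0.0201 after TMM, at -0.0019 after scaling by DESeq2 size factors and at -0.0017 in the DESeq2 test, and from -0.063 to 0.1246 with 1 library left out. miR-99b-5p was at -0.0161 with upper-quartile factors, and miR-10a-3p at -0.1733 after thinning to the smallest library. miR-99b-3p was at 0.3143 with DESeq2 and 0.3375 with edgeR, and from -0.6786 to 0.7802 with 1 library left out, while miR-100-3p ran from -0.0771 to 1.3878. With 1 library left out, the difference in the family's share of reads ran from -1.098 (without normal replicate 3) to -0.2767 percentage points (without diabetic replicate 2), that of the miR-99 and miR-100 5p rows from -0.9577 to -0.1583 and that of the miR-125 5p rows from -0.1714 to -0.02845. The difference in the miR-10 5p share ran from -0.005633 to 0.02789 percentage points, and that of the 3p rows from -0.001211 to 0.002654, with -0.0003274 after thinning. The difference in 3p arm share was -0.06523 for miR-10a after thinning, and ran from -0.2713 to 0.8533 for miR-99b and from -0.00466 to 0.2034 for miR-125b with 1 library left out. The causes were not tested. For miR-125a the arm share difference was 0.07362 without diabetic replicate 1, beside 0.2375. The 3 ratios kept their direction under every alternative run, with miR-99b-5p over miR-99a-5p from 0.2448 to 0.5255. With 1 library left out the smallest exact permutation p of the ratios was 0.2, which is also the smallest such a test can then give. Depth limited the 5 tested members that averaged under 10 reads a library, since their values rest on few reads.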
